A study of Mus musculus with 13 samples.

Results

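Kallikreins of the epidermis, the membrane protease matriptase and their inhibitors were followed in chemically induced skin tumours of mice with and without G9a. The set comprised 10 genes: the kallikreins Klk5, Klk6, Klk7, Klk8, Klk10, Klk11 and Klk13, the matriptase gene St14, and the inhibitor genes Spint1 and Spink5. A gene was read from every array probe set that carried its symbol and no other, and 8 of the 10 genes had such a probe set, 1 each, out of 17097 genes read this way on the array. Klk5 and Klk13 had none, so 5 of the 7 kallikreins were measured.

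The arrays came from 6 tumours of G9a WT mice (replicates 2, 4, 6, 7, 8 and 9) and 7 tumours of G9a cKO mice (replicates 1, 2, 3, 5, 6, 8 and 9), where cKO is taken to stand for a conditional knockout. G9a is a histone methyltransferase encoded by Ehmt2. Mice of both groups received the carcinogen DMBA and the promoter TPA on shaved back skin from 8 weeks of age, each week for 6 weeks and then TPA alone for at most 20 weeks, and the labels call the tumours SCC. The cells in which G9a was deleted, the strain and how many mice the tumours came from are not stated in those labels, so p-values measure only the spread between these samples.

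Tissue kallikreins are secreted serine proteases made as inactive precursors. In the upper epidermis they activate one another and cut the desmosomal proteins that hold corneocytes together, which lets the surface layer shed. Matriptase starts such cascades at the cell surface, the inhibitor encoded by Spint1 (HAI-1) binds matriptase, and LEKTI, the product of Spink5, blocks kallikreins in the granular layer.

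The kallikrein genes lie side by side on mouse chromosome 7 in the order Klk14, Klk13, Klk12, Klk11, Klk10, Klk9, Klk8, Klk7, Klk6, Klk5 and Klk4 (RefSeq, GRCm38.p6). The 100 bases before the start of transcription are shown for the 4 measured kallikreins with the largest differences between the groups, so that the neighbouring starts can be compared. Capitals mark the TATA-like letters TTAAAA and the CACCC box on either strand, so that a capital run starting with G is the second of these read on the other strand. The windows are chr7:43780954-43781053 for Klk10, chr7:43797477-43797576 for Klk8, chr7:43811194-43811293 for Klk7 and chr7:43825350-43825449 for the downstream of 2 starts of Klk6, all on the plus strand.
Klk10: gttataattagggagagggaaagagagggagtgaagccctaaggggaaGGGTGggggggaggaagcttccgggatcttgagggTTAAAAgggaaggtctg
Klk8: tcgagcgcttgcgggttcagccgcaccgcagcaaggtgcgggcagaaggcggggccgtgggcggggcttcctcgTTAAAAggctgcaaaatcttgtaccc
Klk7: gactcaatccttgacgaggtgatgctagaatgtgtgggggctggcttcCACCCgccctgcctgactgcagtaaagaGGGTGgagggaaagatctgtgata
Klk6: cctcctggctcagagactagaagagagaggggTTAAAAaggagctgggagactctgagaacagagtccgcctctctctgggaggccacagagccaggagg
The TATA-like letters begin 17 bases before the start of Klk10, 26 bases before that of Klk8 and 68 bases before this start of Klk6, and they are not in the Klk7 window. They are in 3 of the 10 windows found for 8 of the 10 genes, and not in that of the other start of Klk6. Of all 32851 RefSeq windows of 100 bases, 6.32% hold the TATA-like letters on either strand and 27.2% hold the CACCC box. The CACCC box is in the windows of Klk7, Klk10, Klk13, the other start of Klk6 and the upstream start of Klk11. The letters GGGCGG of the GC box (24.7% of all windows) are in those of Klk7, Klk8, Spint1 and the other start of Klk6. The TATA-like letters were chosen after the sequences were seen. The letters TATAAA of the TATA box (5.56% of windows), and the AP-1 letters TGANTCA (2.73%), were in none of the 10.

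Facts about the whole array set bear on every value below. The deposited values are log2 expression after RMA, and array medians lay between 5.09 and 5.14. The targeted gene Ehmt2 has a pair of probe sets. On 1 of them WT tumours (8.33 ± 0.19, SD, n = 6) and cKO tumours (6.01 ± 0.10, SD, n = 7) did not overlap, and the other had 7.29 ± 0.19 and 7.42 ± 0.04; whether either lies in the deleted part is not known here. In all, 6 pairs of arrays that follow one another in their group (3 in WT and 3 in cKO) mirrored each other around the group mean, with correlations of their deviations between -0.953 and -0.881, and cKO replicate 1 had no such partner. A second fit therefore held a term for each mirrored pair, and the words rose and fell are kept for genes that limma called at an adjusted p under 0.05 in both fits. Counts of tumours given below take mirrored partners as separate tumours, although their values are not independent. The first fit called 47.9% of 45037 probe sets and the second 27%. Nonspecific control probe sets differed between the groups (cKO minus WT) by -0.307 to 0.082, and 18 hybridisation controls by 0.057 to 0.493.

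Klk10 fell in cKO tumours and was the only measured gene of the set called by both fits. Spint1 was lower in the fit without the pair term and missed the threshold with it. The other 6 genes passed neither fit: Klk6, Klk7, Klk8 and Spink5 had lower means in cKO tumours, and Klk11 and St14 higher ones. Thus 2 of 8 genes were called without the pair term, both lower, beside 23.4% of all probe sets called lower and 24.4% called higher, and 1 of 8 was called lower in both fits, beside 13.1%. Neither share sets the genes apart from the array as a whole. The median log2 difference over the 8 genes was -0.51, against 0.000 over all probe sets. All of the 8 but Spink5 lay in deciles 8 to 10 of the mean level. Probe sets of deciles 8, 9 and 10 had median differences of -0.055, -0.122 and -0.132. After quantile normalization these were 0.023, 0.015 and 0.007.

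Klk10 encodes a secreted kallikrein-related protein of epithelia that was first described as a gene lost in breast tumours. In WT tumours its log2 level was 8.41 at the lowest, 9.12 at the median and 9.53 at the highest. In cKO tumours it was 6.00, 7.15 and 8.53. Every WT tumour lay above the cKO median, 6 of 7 cKO tumours lay below the lowest WT tumour, and only cKO replicate 5 (8.53) reached into the WT range. The means were 9.02 ± 0.50 (SD, n = 6) and 7.25 ± 0.91 (SD, n = 7), a difference of -1.77 ± 0.39 (SE), or 3.4-fold (limma adjusted p = 0.0025, and 0.0309 with the pair term). Over the whole array, 0.921% of probe sets were called lower by more than 1 on this scale in the first fit. In whole tumours, fewer cells that express a gene and less RNA per cell cannot be told apart.

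**Figure D1:**
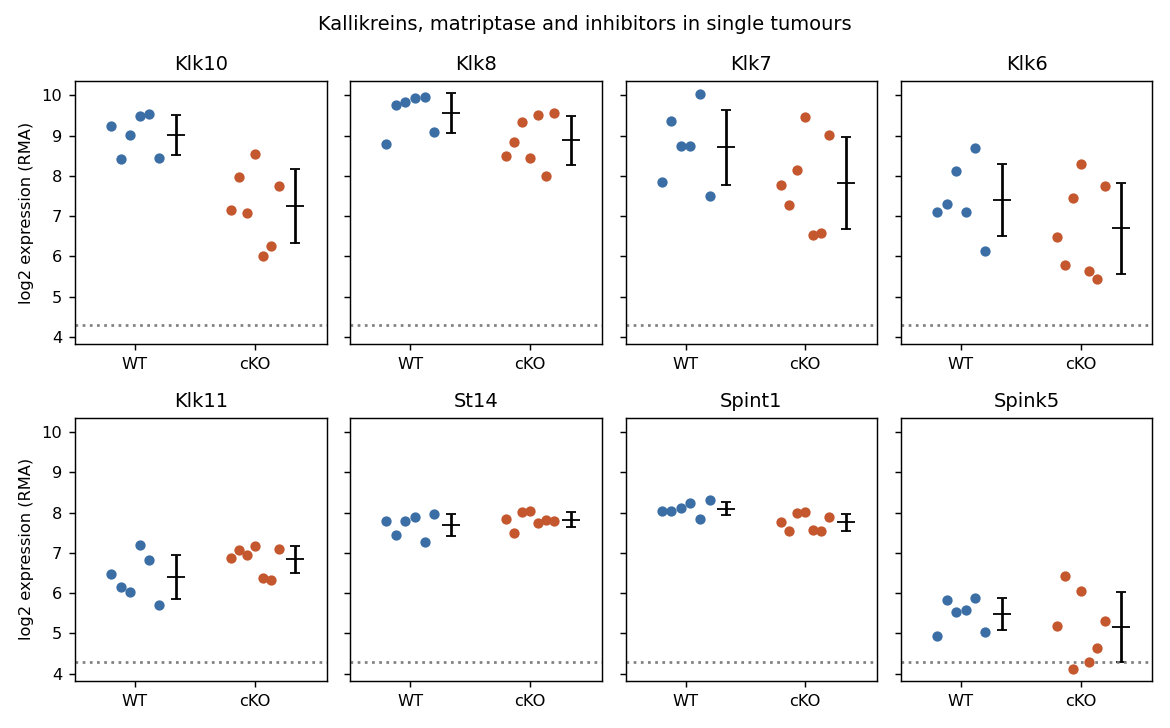
Log2 expression (RMA) of 8 genes in each tumour, with WT in blue (n = 6) and cKO in orange (n = 7); bars give the mean and SD, and the dotted line is the upper quartile of nonspecific controls (4.29). Klk10 separates the groups except for 1 cKO tumour at 8.53, and Klk6 and Klk7 spread widely in both groups.

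Klk8, also called neuropsin, is a trypsin-like kallikrein of the upper epidermis and of the brain. It ranged from 8.79 over a median of 9.79 to 9.95 in WT tumours and from 8.00 over 8.84 to 9.57 in cKO tumours. The 4 highest values were all from WT tumours and the 3 lowest from cKO tumours, and the ranges overlapped between them. The difference was -0.67 ± 0.29 (SE), with a 95% confidence interval of -1.30 to -0.04 and a limma adjusted p of 0.0733 (0.173 with the pair term). Single tumours decided whether Klk8 passed: without WT replicate 2, cKO replicate 6 or cKO replicate 9 the limma adjusted p was 0.0327, 0.0471 or 0.0428. With any other array left out it stayed at 0.0579 to 0.139. After quantile normalization the difference was -0.52 (limma adjusted p = 0.156). Probe sets of similar signal (decile 10 of the mean level) had a median difference of -0.132, which was 0.007 after quantile normalization.

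Klk7, the chymotrypsin-like enzyme of the stratum corneum, degrades corneodesmosomes. Its log2 level was 7.51, 8.74 and 10.02 at the lowest, median and highest of the WT tumours, and 6.53, 7.77 and 9.47 in the cKO tumours. The groups overlapped over most of their range, with 1 WT tumour above all cKO tumours and 3 cKO tumours below all WT tumours. The difference was -0.88 ± 0.54 (SE; limma adjusted p = 0.2), and its 95% interval of -2.05 to 0.30 includes both no change and a large decrease.

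Klk6, a trypsin-like kallikrein known from the nervous system and from squamous tumours, also overlapped widely. WT tumours ran from 6.13 over 7.21 to 8.69 and cKO tumours from 5.45 over 6.48 to 8.30. Again 1 WT tumour lay above all cKO tumours and 3 cKO tumours lay below all WT tumours. The difference was -0.72 ± 0.53 (SE; 95% interval -1.87 to 0.44; limma adjusted p = 0.288).

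Klk11, a trypsin-like kallikrein made in the epidermis and many glands, was the only kallikrein of the set with a higher mean in cKO tumours. It spanned 5.70, 6.31 and 7.20 in WT and 6.33, 6.94 and 7.16 in cKO tumours. The highest single value came from WT replicate 7, and no cKO tumour lay below the lowest WT tumour. The difference was 0.44 ± 0.23 (SE; 95% interval -0.07 to 0.94; limma adjusted p = 0.141, and 0.284 with the pair term). Leaving out WT replicate 7 gave 0.60 (limma adjusted p = 0.0333), and leaving out its mirrored partner, WT replicate 6, gave 0.36 (0.252). With any array other than WT replicate 7 left out, the limma adjusted p was 0.0913 to 0.292.

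Matriptase itself differed little. St14 had 7.28, 7.78 and 7.97 in WT tumours and 7.50, 7.82 and 8.04 in cKO tumours, so the groups lay almost on top of each other. The difference was 0.13 ± 0.12 (SE), with a 95% interval of -0.12 to 0.39 (limma adjusted p = 0.379). A change of the size seen for Klk10 lies far outside this interval in either direction, although quantile normalization of these values moved the difference to 0.27 (limma adjusted p = 0.0798).

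Among the inhibitors, Spint1 ran from 7.85 over 8.08 to 8.31 in WT tumours and from 7.54 over 7.76 to 8.02 in cKO tumours. All WT tumours lay above the cKO median, and 5 of 6 above the highest cKO tumour. The difference was -0.34 ± 0.10 (SE), or 1.27-fold (limma adjusted p = 0.0137, and 0.0812 with the pair term). The largest decrease of a nonspecific control was close to it, at -0.307, and the difference became -0.20 (adjusted p = 0.105) after quantile normalization. Probe sets of similar signal (decile 9 of the mean level) had a median difference of -0.122, which was 0.015 after quantile normalization. The Spint1 probe set did not fall by the rule used here, as it missed the threshold in the fit with the pair term.

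Spink5 came close to background in some tumours: WT tumours ran from 4.94 over 5.56 to 5.88 and cKO tumours from 4.12 over 5.19 to 6.43. The cKO tumours lay on both sides of the WT range, with a SD of 0.87 against 0.40 in WT, and cKO replicate 3 (4.12) was below the upper quartile of nonspecific controls (4.29). The difference was -0.32 ± 0.36 (SE; 95% interval -1.10 to 0.46; limma adjusted p = 0.49).

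**Figure D2:**
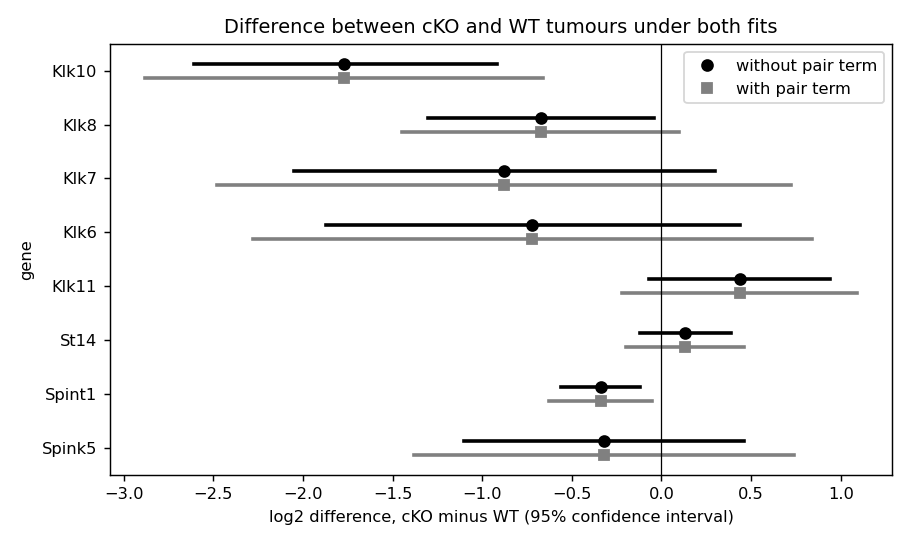
Log2 difference, cKO minus WT, for 8 genes with its 95% confidence interval in the fit without (black) and with (grey) the pair term. The intervals of Klk10 lie below 0 in both fits (-2.61 to -0.92 and -2.88 to -0.66); those of Spint1 do too, but its p adjusted over the whole array was 0.0812 with the term.

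The kallikreins varied far more between tumours of 1 group than most probe sets of the array. The SD within groups, pooled over both, was 1.05 for Klk7, 1.03 for Klk6, 0.75 for Klk10, 0.70 for Spink5, 0.56 for Klk8 and 0.45 for Klk11, against a median of 0.11 over all probe sets. Klk6 and Klk7 stood at the percentile 99.8 of all probe sets by this SD, Klk10 at 99.3 and Spink5 at 99.0. St14 and Spint1, with 0.23 and 0.19, stood at 81.7 and 75.2. These percentiles are over probe sets of all signal levels, and spread at a matched level was not compared. A wide spread was not particular to kallikreins: Krt1 had an SD of 0.92 in WT and 1.66 in cKO tumours, and Krt10 0.96 and 1.40. Other keratin genes spread little, such as Krt5 (0.05 and 0.03). The spread of Klk6 and Klk7 is what their differences were set against in the fits. Within the mirrored pairs, the median distance between partners was 1.97 for Klk6 and also 1.97 for Klk7, while their group differences were 0.72 and 0.88 in size. For Klk10 that distance was 0.99 and the group difference 1.77. Partners mirror each other around the group mean, so the distance between them tends to exceed the deviation of either tumour. It is therefore not a like measure to a difference of group means.

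Klk6, Klk7 and Klk10 had their extremes in the same cKO tumours. The 2 lowest cKO values of each came from replicates 6 and 8: 5.64 and 5.45 for Klk6, 6.53 and 6.58 for Klk7, and 6.00 and 6.27 for Klk10. The highest came from replicate 5: 8.30, 9.47 and 8.53. This was not particular to kallikreins with lower means in cKO tumours. Klk11, with a higher mean, was also lowest in cKO replicates 6 (6.38) and 8 (6.33) and highest in replicate 5 (7.16). St14 (8.04) and Spint1 (8.02) were highest in cKO replicate 5 too. In WT tumours, replicate 8 had the highest Klk6 (8.69), Klk7 (10.02) and Klk10 (9.53). WT replicate 9 had the lowest Klk6 (6.13), Klk7 (7.51) and Klk11 (5.70). Klk8 shared the highest WT value in replicate 8 (9.95) and the lowest cKO value in replicate 8 (8.00), but had 9.52 in cKO replicate 6 and 8.44 in cKO replicate 5. Since partners mirror each other, the 12 paired arrays give 6 comparisons between partners: Klk7 went the same way as Klk6 and as Klk8 in 5 of 6, and as Klk10 in 4 of 6. Klk6 went with Klk8 in 4 of 6 and with Klk10 in 3 of 6, Klk8 with Klk10 in 3 of 6, and Klk10 with Klk11 in 6 of 6. Of all other probe sets, 8.57% went with Klk7 in at least 5 pairs and 1.54% with Klk10 in all 6, so direction alone does not mark these genes out.

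**Figure D3:**
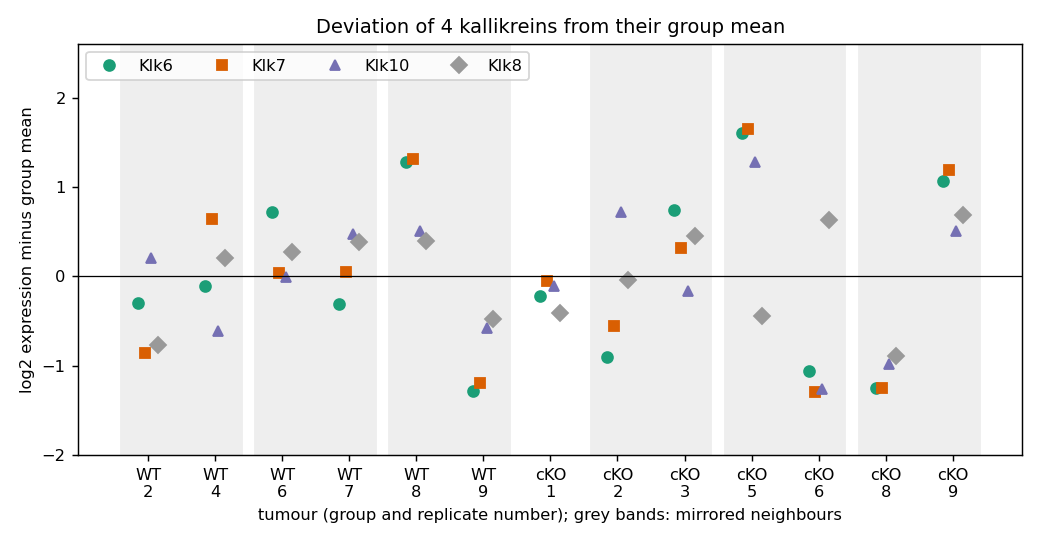
Log2 expression minus the group mean of Klk6, Klk7, Klk10 and Klk8 in each of 13 tumours; grey bands join array neighbours that mirror each other. Klk6, Klk7 and Klk10 are low together in cKO replicates 6 and 8 and high together in WT replicate 8 and cKO replicate 5, while Klk8 goes with them in WT replicate 8 and cKO replicate 8 and is high in cKO replicate 6. Klk11, not drawn, was also lowest in cKO replicates 6 and 8 and highest in cKO replicate 5.

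For the 3 genes with the widest range, the most alike among 13790 genes with a mean at or above 4.29 were sought by Pearson's r over the 13 arrays, as a description. Klk10 (range 3.53) was most like Sprr1b (r = 0.959), a cornified envelope precursor gene, 1810058I24Rik (0.950) and Anp32e (0.946), a histone chaperone gene. Klk7 (range 3.48) was most like Hbp1 (0.956), a transcription factor gene, Ehd3 (0.940) and Sntb1 (0.935). Klk6 (range 3.24) was most like Ctcf (0.914), Stam (0.904) and Hbp1 (0.901). The arrays share the mirrored structure and, for Klk10, the difference between groups, and such values are the highest of many.

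Cell type markers moved between the groups as well. Of 6 measured genes of stressed keratinocytes, 3 were lower in cKO tumours and none higher without the pair term, beside 20.4% of all genes lower. Of those 3, Krt6b lost its call with the pair term (limma adjusted p = 0.106). The mean log2 level of the 6 genes was 9.67 to 10.97 in WT and 8.75 to 10.12 in cKO tumours. Sprr1b is one of them: it fell from 9.90 ± 0.24 to 8.67 ± 0.66. Of 7 basal keratinocyte genes 1 was higher and 1 lower (mean level 11.14 to 11.45 and 11.09 to 11.50), of 6 spinous genes 1 was higher (7.07 to 7.72 and 6.68 to 8.49), and of 8 granular and cornified layer genes 1 was higher and 1 lower (5.93 to 6.28 and 5.78 to 6.30), and the gene called higher was Flg, below the median of nonspecific controls (3.6) on all arrays. Without the pair term, 5 of 7 fibroblast genes (4.57 to 5.54 in WT and 6.06 to 6.60 in cKO tumours) were higher. So were 5 of 6 endothelial genes (4.30 to 5.80 and 5.98 to 6.57), beside 26.1% of all genes. Of 7 leukocyte genes, 3 were higher and 1 lower (4.68 to 4.77 and 5.08 to 5.72). Among those 3, Cd53 differed by 2.95. Csf1r (0.26) and Adgre1 (0.35) lay within the range of the hybridisation controls, and both group means of Adgre1 were below 4.29. In summed linear signal, the stressed keratinocyte genes ran from 11545 to 16500 in WT and from 7223 to 12297 in cKO tumours, and the fibroblast genes from 193 to 580 and from 956 to 2113. The part of these shifts in the decrease of Klk10 was not tested.

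Genes that work beside the set were read from 5 lists, each gene by its brightest probe set. Of 65 measured genes 26 were called without the pair term (16 higher and 10 lower, 40%), beside 46.5% of all genes (26.1% higher and 20.4% lower), and 13 in both fits (9 higher and 4 lower), beside 26.2% of all genes. After quantile normalization the split was 18 higher and 5 lower. Their median difference was 0.01, against 0.017 over all genes.

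Of 6 other kallikreins, 2 were measured. Klk1, the enzyme that releases kinins, rose by 0.23 (6.06 ± 0.10 to 6.29 ± 0.08), within the range of the hybridisation controls. No nonspecific control increased as much (at most 0.082), but the largest decrease of such a control was greater in size (-0.307). Klk4 had 3.92 and 3.98, below 4.29 in both groups. Of 14 other membrane-anchored and epidermal serine proteases, 2 were higher and 1 lower. Prss22, a tryptase of epithelia, fell from 8.23 ± 0.41 to 7.22 ± 0.41 (-1.01; limma adjusted p = 0.00185, and 0.0179 with the pair term). Tmprss2 rose by 0.43, also within the range of the hybridisation controls. Tmprss4, at 4.87 ± 0.41 and 5.81 ± 0.53, passed only without the pair term (limma adjusted p = 0.0572 with it). Prss8, the gene of prostasin, the membrane protease that works in a loop with matriptase, had 4.97 ± 0.43 in WT and 4.75 ± 0.30 in cKO tumours (-0.21; limma adjusted p = 0.378).

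Of 16 measured inhibitors, none was higher and 2 were lower, with a median of -0.12. Serpinb6a fell by 0.44, and the cystatin gene Csta1, at 8.90 ± 0.90 and 7.31 ± 0.72, passed only without the pair term (adjusted p = 0.062 with it). Spint2, which encodes HAI-2, the relative of the Spint1 product, had 10.46 ± 0.18 and 10.42 ± 0.22 (difference -0.04, 95% interval -0.27 to 0.20; limma adjusted p = 0.802). Of 11 other proteases and crosslinking enzymes of cornification, 3 were lower: Ctsd, the gene of cathepsin D, fell by 0.25, within the range of the controls, and Ctsl (-0.39) and Furin (-0.28) passed only without the pair term.

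Of 22 measured substrates and receptors, 13 were higher and 4 lower without the pair term, beside 26.1% and 20.4% of all genes. In both fits 7 were higher and 1 lower, beside 26.2% of all genes in either direction. The median was 0.31, within the range of the hybridisation controls (0.057 to 0.493). Flg, counted among the 13, lay below the median of nonspecific controls (3.6) on all arrays. F2rl1, the receptor that trypsin-like kallikreins and matriptase cut, had no probe set of its own. Matriptase activates the precursors of HGF and of its relative MSP, whose receptors are Met and Mst1r. Met fell from 10.22 ± 0.25 to 9.19 ± 0.34 with no overlap, beside 24.2% of all probe sets with no overlap (-1.03; limma adjusted p = 0.000197, and 0.00931 with the pair term), and its other probe set by 0.81. Mst1, the gene of MSP, rose from 4.46 ± 0.19 to 5.28 ± 0.20 (0.82; limma adjusted p = 3.88e-05, and 0.00411 with the term), and Hgf rose by 0.23 at levels of 4.57 and 4.80. Mst1r, at 7.86 ± 0.29 and 8.24 ± 0.16, passed only without the pair term. Of the genes of the epithelial sodium channel, which prostasin and its relatives activate, Scnn1b and Scnn1g rose by 0.39 and 0.33, while Scnn1a, also called by both fits, lay below 4.29 in both groups and is given no fold. Smpd1, the gene of acid sphingomyelinase, rose by 0.35. The rises of Hgf, Scnn1b, Scnn1g and Smpd1 also lay within the range of the hybridisation controls. Plau, the gene of the plasminogen activator that matriptase can activate, and Cdcp1 had differences of -0.73 and -0.52 and passed only without the pair term. Among corneodesmosome genes, Dsg1a was higher in cKO tumours by at least 1.17-fold, counted against the level 4.29, as it lay below the median of nonspecific controls on 4 of 6 WT arrays. Dsg1b had 4.88 and 4.17 and Cdsn, the corneodesmosin gene, 5.56 ± 0.79 and 7.08 ± 0.82, and both passed only without the pair term (adjusted p = 0.078 and 0.0681 with it).

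**Figure D4:**
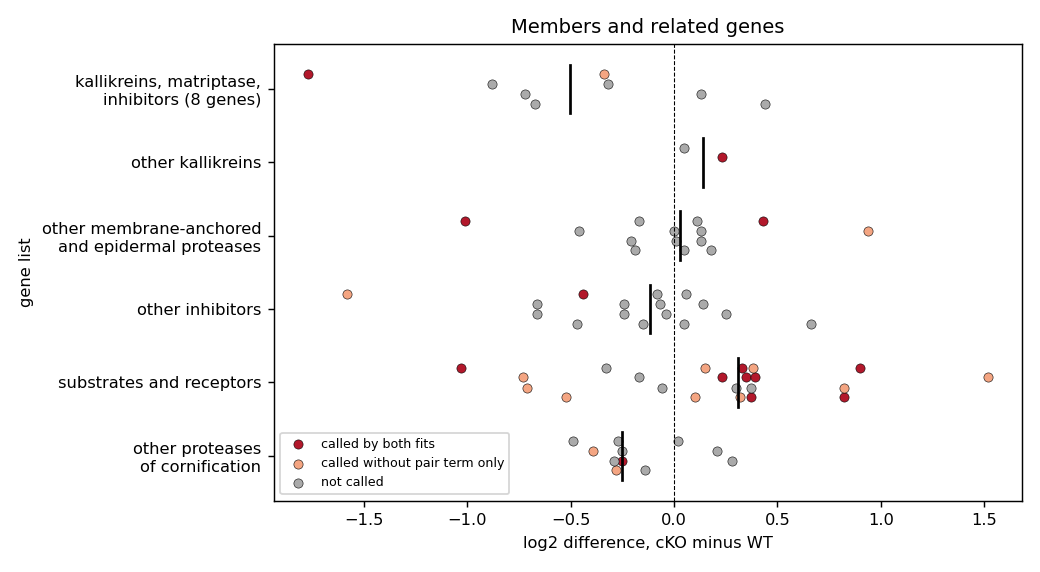
Log2 difference, cKO minus WT, of the 8 measured genes and of 5 lists of related genes; each point is a gene coloured by which fits called it, and black bars are medians. Klk10 (-1.77) lies farthest to the left. Substrates and receptors have the median farthest to the right (0.31, within the range of the hybridisation controls).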

How the data were processed

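Total RNA was amplified (25 ng, 17 cycles), biotin-labelled and hybridised, 1 array per tumour, per the labels' protocols. The deposited table holds log2 expression by probe set from RMA, as the submitters' processing notes say, with no version given in the sources used. Quantiles and spread differ between arrays (SD 1.91 to 1.94 in WT and 1.83 to 1.88 in cKO), and no depth applies: the number of arrays limits precision.

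The 104 control probe sets were left out. Differences between cKO and WT (groups from the sample titles) were fitted over 45037 probe sets with limma 3.58.1 in R 4.3.3 (lmFit, eBayes), two-sided, without covariates, and p-values were adjusted by Benjamini-Hochberg (threshold 0.05). The second fit held a term for each mirrored pair (r of deviations under -0.8). Same-numbered tumours of both groups had correlations of deviations from -0.283 to 0.054, so numbers were not taken to pair them. Of 45037 probe sets, 28898 have 1 symbol, 551 several and 15588 none. Promoter windows come from RefSeq (GRCm38.p6).

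The genes, the related lists and the pair term were chosen with earlier results of these data known. Named related genes are those called by both fits and changed by at least 0.5 (up to 6 a list), plus Prss8, Spint2 and F2rl1; others were named after their values were seen. The script was tested on simulated data. Alternatives were other normalizations, a filter on probe sets below the 25th percentile, 1 probe set per gene, array weights, a trended robust prior, a block for the replicate number, and each array left out. Figures were drawn with matplotlib 3.10.9.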

Additional observations from a re-analysis of the deposited data

How the results depend on the processing

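In all 22 alternatives the 8 genes kept the sign of their difference. Klk10 lay between -2.05 and -1.56 and was called in all of them but 1: with the replicate number as a block, over the 4 numbers that occur in both groups, it was -2.05 (limma adjusted p = 0.0529). The labels do not say whether the numbers pair the tumours, and the block leaves 8 of 13 arrays. That fit called 1 gene of the set lower in place of 2, which was Spint1 (-0.45, limma adjusted p = 0.0169). It called 7 related genes higher and 6 lower in place of 16 and 10. Spint1 lost its call with the pair term (-0.34), after quantile normalization (-0.20) and with both (-0.20). In each of these 3 fits 1 gene was called lower. The related lists had 9 higher and 4 lower genes with the pair term, 18 and 5 after quantile normalization, 11 and 2 with both, and 24 and 14 with array weights. With array weights, whose estimate stopped before it converged, Klk8 (-1.0) and Klk11 (0.51) passed and 1 gene was higher. The cause was not tested. Leaving out each array in turn gave 0 to 1 genes called higher and 2 to 3 lower, and 14 to 19 and 7 to 11 related genes. Klk6 then ran from -0.98 to -0.46, Klk7 from -1.15 to -0.61, Klk8 from -0.83 to -0.52, Klk10 from -1.98 to -1.56, Klk11 from 0.30 to 0.60, St14 from 0.05 to 0.19, Spint1 from -0.39 to -0.30 and Spink5 from -0.53 to -0.15. No value of the 5 measured kallikreins of the set lay below 4.29, the upper quartile of nonspecific controls, so signal over background limits only Spink5 among the 8 genes.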
